A study of Brachypodium distachyon with 24 samples.

Results

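The genes described here are 146 genes of the grass Brachypodium distachyon whose leaf transcript level was higher under drought in the accessions Bd21 and Bd3-1 and also in their hybrid. They were chosen by their measured values. CPM values (a count scaled to the total of its library) were averaged on the log2(CPM + 1) scale, and drought minus control was taken in each genotype. The smallest of these 3 differences was the score of a gene. The 150 highest scores were taken among 22639 genes detected at all in more than 10 libraries, of 32439 in the table, and 4 of the 150 (an LEA gene, a pair of RAB18 orthologs and an ASR5 ortholog) were set aside by the same rule. Drought minus control therefore chose these genes, and its values are given below as a description without a test.

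The study asked how accessions that differ in their drought response regulate their genes, and used a hybrid to separate the effects of the alleles. Bd21 and Bd3-1 are inbred accessions, and the F1 hybrid was made by pollinating Bd3-1 flowers with Bd21. Control plants were kept at 85% of the field capacity of the pot, and drought plants were dried to 55% over 6 days starting 33 days after sowing. Leaves were harvested in the middle of the day, and the design text names the youngest fully expanded leaves for the harvest of the F1 plants. Libraries were made from Bd21 control (n = 3), Bd21 drought (n = 3), Bd3-1 control (n = 5), Bd3-1 drought (n = 3), F1 control (n = 5) and F1 drought (n = 5). The F1 hybrids were grown in a dry-down of their own, so generation and experiment cannot be told apart. The design text places 2 of the Bd3-1 control plants with the F1 harvest and does not say which. Comparisons that use Bd3-1 control can therefore carry a difference between harvests, which was not tested. The labels number the replicates without stating that each is a separate plant, so p-values measure the spread between these libraries.

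Plants that lose soil water make abscisic acid (ABA), a hormone that closes stomata and turns on protective genes. The 9-cis-epoxycarotenoid dioxygenases (NCED) cut a carotenoid in the step that limits ABA synthesis. ABA bound to its receptors blocks clade A protein phosphatases 2C such as HAB1, which otherwise hold SnRK2 kinases inactive, and the freed kinases activate bZIP factors and ion channels. Genes for the phosphatases, for homeodomain factors such as ATHB-7 and for AITR repressors are themselves induced by ABA in Arabidopsis and form its feedback arm. Names are available for 15 of the 146 genes, taken from the annotation in the study. They are orthology names, mostly to Arabidopsis, and the function in Brachypodium is assumed. The other 131 genes are known here by identifier only, because the identifiers of the file matched 0 of 31335 reference entries.

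The median library held 21579369 counts, the shallowest 6905973 and the deepest 42354206. Bd21 drought replicate 2 was the shallowest and Bd21 control replicate 1 came next, and 44 of the 146 genes were at 0 in the latter, against 0 to 26 in any other library. The 10 most abundant genes took 7.02% to 16.3% of a library, the most in F1 control replicate 1. The chlorophyll a-b binding protein gene Bradi4g31257, the leaf marker with an identifier in the sources, lay between 41.3 and 154 CPM in all 24 libraries. It was lower in drought by mean log2(CPM + 1), with differences of -0.49 for Bd21, -0.50 for Bd3-1 and -0.89 for F1 plants. In bulk leaf tissue, fewer cells of a type and less RNA per cell cannot be told apart.

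Together the 146 genes held a small share of the transcripts under control conditions and several times as much under drought. In Bd21 they took 0.253% ± 0.0329 (SD, n = 3) of the counts in control and 0.976% ± 0.272 (n = 3) in drought. The Bd3-1 shares were 0.262% ± 0.114 (n = 5) and 1.01% ± 0.140 (n = 3). For the F1 hybrid they were 0.219% ± 0.111 (n = 5) and 1.52% ± 0.449 (n = 5). Control and drought libraries did not overlap in any genotype. The highest control library, Bd3-1 control replicate 5, reached 0.428%, and the lowest drought library, Bd21 drought replicate 3, held 0.673%. The rule chose the genes for higher drought levels on these same libraries, so nothing is read from this separation. Among the F1 drought libraries, replicate 3 stood lowest at 0.830% and replicate 4 highest at 1.98%.

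**Figure D1:**
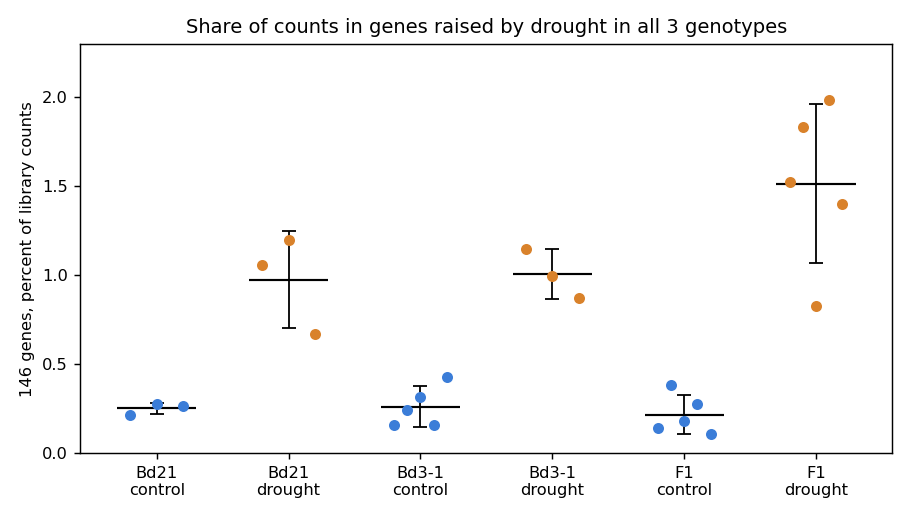
Percent of each library's counts that fell on the 146 genes (y axis, percent), by group (x axis); points are libraries, the line is the group mean and the bar its SD. All 13 control libraries lie at or below 0.428% and all 11 drought libraries at or above 0.673%. The genes were chosen for this direction on the same libraries.

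The scores ran from 1.35 to 4.63 with a median of 1.68, and 41 genes scored 2 or more and 8 scored 3 or more. The median difference was 1.87 for Bd21, 1.95 for Bd3-1 and 2.70 for F1 plants, where the medians of all genes kept were 0.10, 0.14 and 0.27. Scaling by TMM effective library sizes (a trimmed mean of log ratios between libraries) in place of library sums moved the medians of all genes kept by -0.09, -0.14 and -0.24, and those of the 146 genes to 1.75, 1.79 and 2.46. The F1 hybrid showed the largest of the 3 differences in 117 of the 146 genes, and in 113 with TMM sizes. Over all genes kept, it had the largest absolute difference in 46.9%. The smallest difference was that of Bd21 for 80 genes, that of Bd3-1 for 55 and that of the hybrid for 11. Whether these differences differ between genotypes was not tested, since they entered the choice of the genes.

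**Figure D2:**
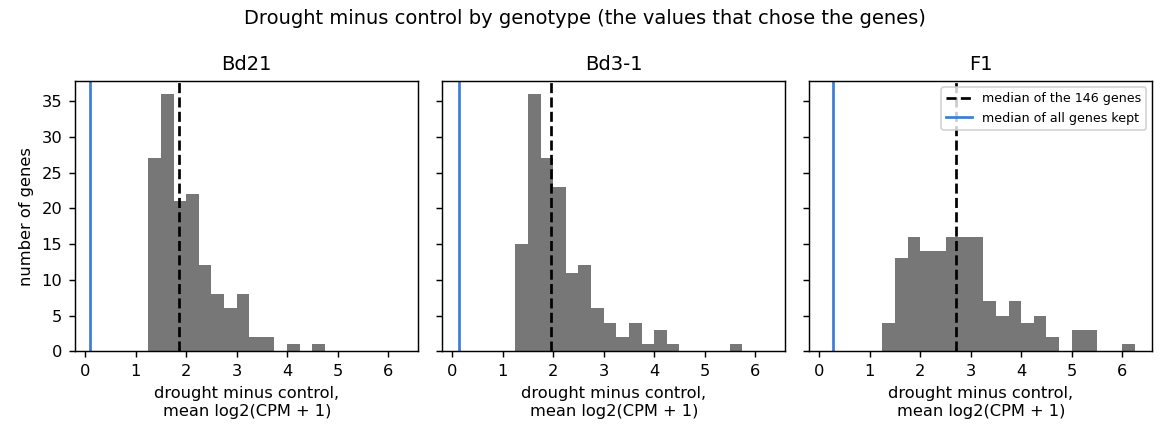
Number of the 146 genes (y axis) by their drought minus control difference in mean log2(CPM + 1) (x axis), one panel per genotype; the dashed line is their median and the blue line that of all genes kept. The medians are 1.87, 1.95 and 2.70, and the F1 values spread farthest, up to 6.06.

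Every drought library lay above every control library in 135 of the 146 genes for Bd21, 104 for Bd3-1 and 96 for F1 plants. The share of all genes kept with that pattern was 10.3%, 10.7% and 8.72%. In 71 of the 146 genes the libraries were separated in all 3 genotypes, against 1.21% of the genes kept. The rule used this contrast, so nothing is read from the counts. At the edge of the selection, the last genes taken, Bradi2g53470 and Bradi1g73817, both scored 1.35, and the first ones not taken, Bradi1g09240 and Bradi1g03760, also scored 1.35.

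Of the ABA genes, the ortholog of NCED2, Bradi1g13760, had the highest rank. It measured 0, 0.777 and 3.26 CPM in the Bd21 control libraries and 30.1, 76 and 18.2 CPM in drought. Bd3-1 gave 0.585, 2.56, 0.804, 0.846 and 3.09 CPM in control and 32.7, 34.4 and 19.2 CPM in drought. In the F1 hybrid the control libraries gave 0.646, 2.4, 0.681, 8.76 and 0 CPM and the drought libraries 107, 126, 106, 184 and 61.9 CPM. The gene was near silent in nearly all control libraries, F1 control replicate 4 being the highest, and drought and control did not overlap in any genotype. Drought minus control was 4.19 for Bd21, 3.60 for Bd3-1 and 5.49 for F1 plants. The 5 F1 drought libraries averaged 117 CPM, against 41.4 in Bd21 and 28.8 in Bd3-1, and Bd21 drought replicate 2 lay within the F1 range.

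Bradi4g39520, the ortholog of AITR3, a repressor that ABA induces, followed with 2.79, 6.93 and 5.39 CPM in Bd21 control and 66.6, 90.9 and 48.1 CPM in drought. Its Bd3-1 values were 2.01, 2.56, 6.95, 6.47 and 13.2 CPM in control and 82.4, 95.5 and 46.9 CPM in drought. The F1 values were 0.956, 16.7, 3.61, 8.31 and 1.24 CPM in control and 114, 134, 86.6, 83.9 and 116 CPM in drought. The groups did not overlap, and the highest control value was that of F1 control replicate 2. Differences on the log2 scale were 3.54, 3.56 and 4.39 in Bd21, Bd3-1 and the F1 hybrid. Bd21 and Bd3-1 differed by less than the spread of their replicates in either condition.

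The homeodomain-leucine zipper gene Bradi3g50220, ortholog of ATHB-7, was expressed at 30.8, 10.6 and 10.5 CPM in Bd21 control and at 141, 183 and 120.0 CPM in drought. In Bd3-1 it stood at 4.90, 7.86, 8.49, 5.09 and 8.82 CPM in control and at 115, 134 and 59.5 CPM in drought. Its F1 levels were 11.1, 37.0, 13.8, 14.6 and 12.5 CPM in control and 374, 511, 378, 336 and 386 CPM in drought. All 5 Bd3-1 control libraries were below all Bd21 control libraries, and all 5 F1 drought libraries were above every parental library. Drought minus control was 3.65 for Bd3-1 and 4.53 for F1 plants, and smaller than either for Bd21.

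The phosphatases 2C shared a more moderate difference from a higher control level. Bradi2g18510, the HAB1 ortholog, averaged 27.3 ± 9.00 CPM (SD, n = 3) in Bd21 control and 108 ± 30.2 (n = 3) in drought, 36.4 ± 22.8 (n = 5) and 128 ± 55.7 (n = 3) for Bd3-1, and 17.5 ± 9.6 (n = 5) and 147 ± 22.4 (n = 5) for F1 plants. Bradi2g41950, the HAB2 ortholog, averaged 28.7 ± 8.82 and 117 ± 10.5 CPM in Bd21, 39.8 ± 14.7 and 120.1 ± 47.6 for Bd3-1, and 30.5 ± 21.2 and 170.0 ± 23.7 for F1 plants, with the same n. Their differences were 1.97, 1.89 and 3.13 for HAB1 and 2.03, 1.56 and 2.70 for HAB2. Neither gene overlapped between conditions in any genotype, although HAB1 came close in Bd3-1, where control replicate 5 reached 73.8 CPM and drought replicate 3 fell to 77.4.

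**Figure D3:**
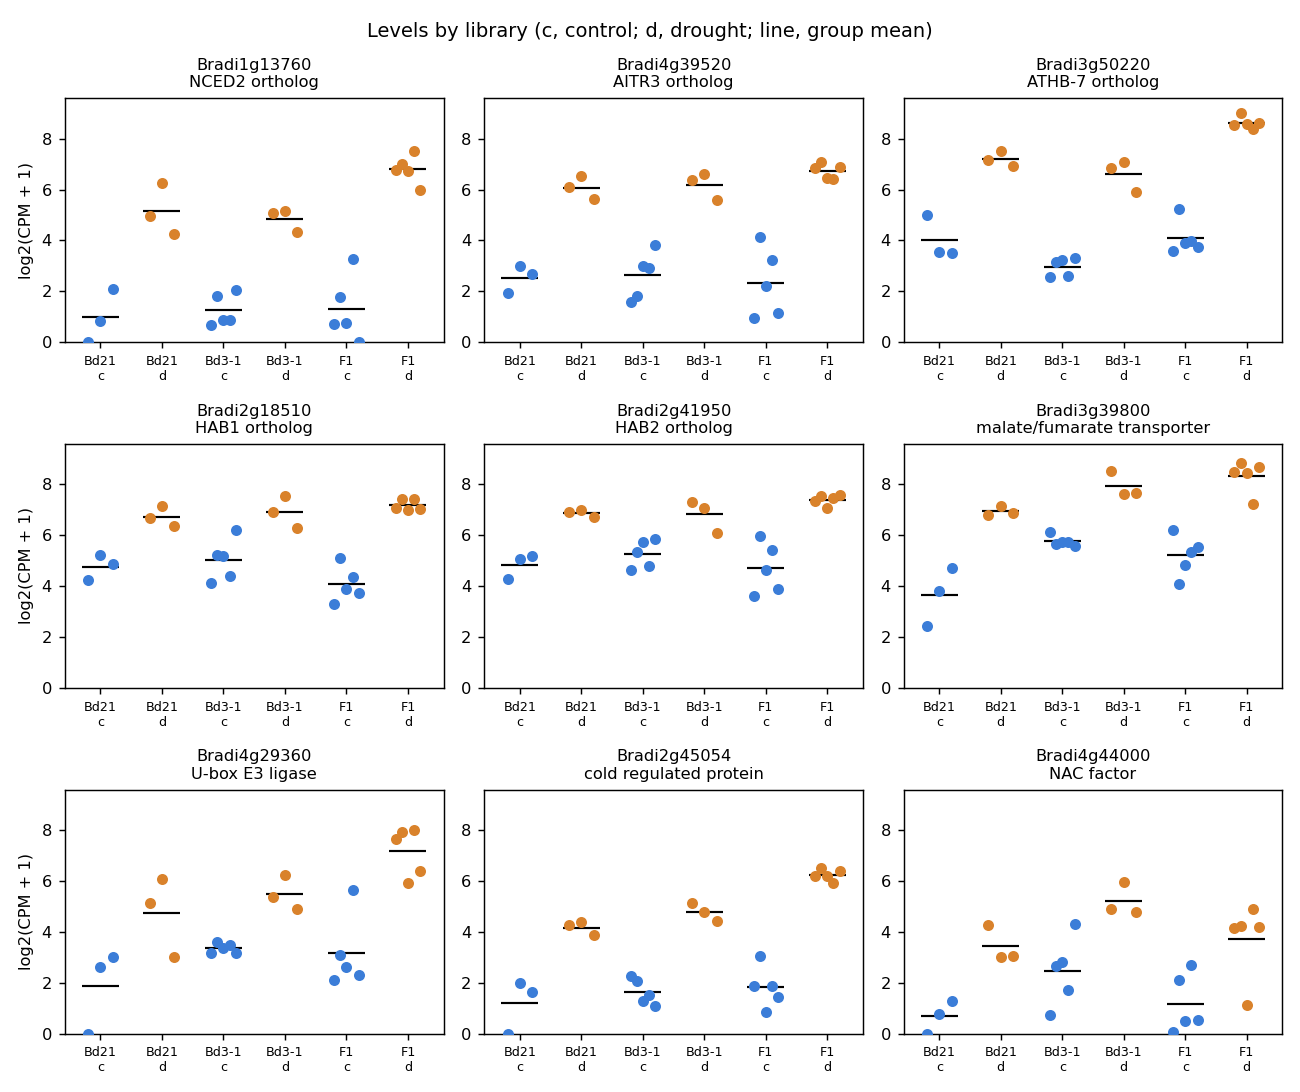
Level of 9 of the named genes in log2(CPM + 1) (y axis) by group (x axis); points are libraries in blue for control and orange for drought, and lines are group means. The ATHB-7 ortholog (336 to 511 CPM) and the cold regulated gene (60.5 to 90.8 CPM) lie in F1 drought above every parental library, and the malate/fumarate transporter lies higher in every Bd3-1 than in every Bd21 library of the same condition.

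Guard cells move malate into their vacuole as stomata open and release it as they close. Bradi3g39800, named for a tonoplast malate and fumarate transporter, measured 4.37, 13.0 and 25.1 CPM in Bd21 control and 112, 140.0 and 117 CPM in drought. Bd3-1 had 69.09, 49.5, 51.7, 51.9 and 47.2 CPM in control and 366, 197 and 202 CPM in drought. F1 plants had 73.4, 16.1, 27.3, 39.5 and 46.1 CPM in control and 359.6, 462, 346, 150.1 and 410.5 CPM in drought. In both conditions every Bd3-1 library exceeded every Bd21 library, and drought and control were separated in all 3 genotypes. The difference was largest in Bd21, at 3.30, with 2.17 for Bd3-1 and 3.14 for F1 plants.

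Signalling enzymes were present as a kinase and a ubiquitin ligase. Bradi4g30380, an ortholog of the CIPK-type kinase SnRK3.18, averaged 32.5 ± 9.26 CPM in Bd21 control and 128 ± 59.4 in drought (SD, n = 3 each), and its Bd3-1 means were 22.8 ± 7.53 (n = 5) and 116 ± 61.8 (n = 3). F1 means were 35.7 ± 38.7 and 195 ± 66.6 CPM (n = 5 each), and the conditions overlapped there, since control replicate 4 held 103 CPM and drought replicate 3 held 94.0. The U-box ligase gene Bradi4g29360 measured 0, 5.12 and 7.04 CPM in Bd21 control and 34.0, 66.3 and 7.03 in drought, where replicate 3 did not leave the control range. It lay at 8.00 to 11.3 CPM in Bd3-1 control and at 28.8 to 74.7 in drought. In F1 control it was 3.31, 7.61, 5.13, 48.8 and 3.96 CPM, with replicate 4 far above the rest, and in F1 drought 198, 242, 59.7, 258 and 82.9.

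Cold and drought share transcription factors, and 2 named genes belong to cold responses. Bradi2g45054, a cold regulated protein, measured 0, 2.98 and 2.09 CPM in Bd21 control and 18.1, 20.0 and 13.7 CPM in drought. The Bd3-1 libraries gave 3.84, 3.26, 1.44, 1.90 and 1.10 CPM and 33.8, 26.9 and 20.6 CPM, and the F1 libraries 2.71, 7.39, 0.785, 2.72 and 1.71 CPM and 71.6, 90.8, 72.8, 60.5 and 82.7 CPM. The drought ranges of Bd21, Bd3-1 and the F1 hybrid followed one another without overlap in that order. Bradi2g59497, ortholog of the bHLH factor ICE2, was less regular: its Bd3-1 drought libraries gave 37.8, 10.2 and 1.73 CPM, of which the last was inside the control range of 1.57 to 3.97.

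A NAC factor gene, a stay-green gene and a paralog of a light-induced protein gene were also selected. The NAC factor gene Bradi4g44000 averaged 0.720 ± 0.724 CPM (SD, n = 3) in Bd21 control and 11 ± 6.47 (n = 3) in drought, 6.67 ± 7.23 (n = 5) and 39.2 ± 19.8 (n = 3) for Bd3-1, and 1.94 ± 2.37 and 16.3 ± 9.83 (n = 5 each) for F1 plants. Stay-green proteins take part in chlorophyll breakdown, and Bradi4g36060 averaged 47.4 ± 6.4 and 136 ± 12.4 CPM for Bd21, 68.0 ± 69.5 and 165 ± 105 for Bd3-1 and 26.8 ± 24.3 and 99.2 ± 49.3 for F1 plants. In Bd3-1 control its 5 libraries ran from 15.9 to 184 CPM and reached past the lowest drought library at 97.6. Bradi1g55610, a paralog of the gene for the early light-induced protein ELIP2, ran from 6.98 to 157 CPM in Bd3-1 control and from 2.12 to 115 in F1 control, and overlapped with drought in both. Its ortholog neighbour Bradi1g55600, which was not selected, had differences of 1.04, 1.73 and 0.37. Reads that fit both copies could make either count uncertain, which was not tested. In these 3 genes and in the copper binding gene Bradi3g07897, F1 drought replicate 3 was the lowest of its group, at 1.17, 29.5, 23.1 and 16.0 CPM in turn, and overlapped with F1 control.

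Bradi4g40850, of unknown function, was seen under drought alone. It was listed at 0 in all 13 control libraries. Bd21 drought plants had 12.8, 28.8 and 0.195 CPM, Bd3-1 drought plants 20.8, 21.9 and 17.8 CPM, and F1 drought plants 84.05, 142, 11.4, 136 and 63.3 CPM. Against a floor of 3 counts per control library, which stands for the counts that a 0 allows, the drought mean was at least 61.6-fold higher for Bd21, 141-fold for Bd3-1 and 672-fold for F1 plants. Bd21 drought replicate 3 was at the level of that floor. In all, 7 of the 146 genes were at 0 in every control library of at least 1 genotype, and 86 were above 0 in all 24 libraries.

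Of the unnamed genes, Bradi3g00910 scored highest, at 4.63, with 4.25, 6.25 and 19.5 CPM in Bd21 control and 192, 402 and 151 in drought. It gave 0.402, 2.61, 11.3, 1.22 and 0.885 CPM and then 239.9, 51.6 and 276 in Bd3-1. For the F1 hybrid the values were 1.29, 2.36, 0.308, 3.59 and 1.55 CPM and 145, 264, 48.6, 62.1 and 137. No drought library overlapped with control. The neighbouring identifier Bradi3g00920, a leucine-rich repeat gene that the study names, had differences of 0.40, 0.58 and 1.86 and was not selected. The most abundant of the 146 genes under drought was Bradi4g25750, with a mean of 1916 CPM over the drought libraries, and its 3 Bd21 drought libraries spanned 183 to 2853 CPM. Median levels by group were 5.68 CPM in Bd21 control, 6.73 in Bd3-1 control and 4.34 in F1 control, where the median of all genes kept was between 8.24 and 10.1. In drought they were 24.1, 28.6 and 40.6 CPM, where it was between 10.8 and 11.3.

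Part of the genes that the study names were grouped here into lists by the roles it gives them. On no list were the selected genes Bradi4g30380, Bradi4g29360, Bradi2g45054, Bradi2g59497, Bradi3g07897 and Bradi1g55610, the ELIP2 paralog annotated with light signaling. The counts below hold for the listed genes alone. Of 12 genes named around ABA and drought regulation, 7 were selected, where 146 of 22639 genes kept were. The 12 include Bradi4g40850 of unknown function and the leucine-rich repeat gene Bradi3g00920. In this list 11 had a score above 0 and the median score was 1.73, where 38.5% of all genes kept scored above 0. Orthologs of CYP707A1, which breaks ABA down, and of GBF2, a bZIP factor, had scores of 1.03 and 1.09 and were not selected. A wax biosynthesis gene, Bradi2g23740, was the exception, with differences of -0.54, -1.27 and -1.07. The list of NAC and chlorophyll genes gave 2 of 7, and 6 of the 7 scored above 0. No gene was selected among the 11 listed for phenylpropanoid and flavonoid synthesis (median score 0.34), the 8 for light and primary metabolism (0.38) and the 6 circadian genes (-0.41). Scores above 0 were still found in 10 of the 11, 6 of the 8 and 1 of the 6. The study picked these genes partly on plants of the same experiment, so the lists are not independent evidence of a direction.

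The rule used drought minus control in each genotype, and the mean of both conditions is a different contrast. Genotype levels were tested as that mean. The test used the libraries that chose the genes, so the counts called are not independent of the choice. Bd3-1 was compared with Bd21 as the mean of both conditions with the edgeR quasi-likelihood test, adjusted over 22639 genes by the Benjamini-Hochberg method. The Bd3-1 control plants placed with the F1 harvest are part of this test, so genotype and harvest are partly mixed in it. At an adjusted p under 0.05, 6 of the 146 genes were higher in Bd3-1 (4.11%, where 2.02% of all genes tested were higher) and 2 were lower (1.37%, where 2.72% were lower). DESeq2 called 16 genes in place of 8, of which 12 were higher (8.22%, where it called 2.94% of all) and 4 lower (2.74%, where it called 3.85%). At an unadjusted p under 0.05, 27 were higher (where 8.59% of all were) and 8 lower (where 6.96% were). The median log2 change was 0.30, and 0.05 over all genes. The transporter gene Bradi3g39800 was higher in Bd3-1 by 1.57 ± 0.36 on the log2 scale (SE, adjusted p = 0.0090 by edgeR), and remained called in all 30 alternatives, with adjusted p between 0.00021 and 0.0332. The change was visible in every library, as given above.

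Larger fitted changes were found in unnamed genes. Bradi4g30668 was higher in Bd3-1 by 3.4 ± 0.54 (SE, adjusted p = 0.00016 by edgeR), with 0, 0.842 and 0.926 CPM in Bd21 control and 2.87 to 26.1 CPM in Bd3-1 control, and 3.47 to 4.94 against 12.7 to 43.4 CPM in drought. Bradi2g33170 was also called higher in Bd3-1. It was listed at 0 in all 3 Bd21 control libraries, so no fitted fold is given, and its drought libraries measured 7.15, 4.2 and 1.30 CPM in Bd21 and 26, 27.3 and 4.87 in Bd3-1. Bradi3g36540 was lower in Bd3-1 by -2.28 ± 0.59 (adjusted p = 0.0205) and Bradi4g42400 by -1.80 ± 0.48 (adjusted p = 0.0271). Of the 30 alternatives, 26 called the former (adjusted p between 0.0046 and 0.0782), which was lost without Bd21 control replicate 1 or drought replicate 1, or Bd3-1 drought replicate 1 or 2. The latter was called in 24 (0.00091 to 0.131) and lost in a fit of parental libraries alone and without Bd21 control replicate 3, Bd21 drought replicate 1 or any one Bd3-1 drought library. The ATHB-7 ortholog Bradi3g50220 missed the threshold, at -0.83 ± 0.25 (adjusted p = 0.0592), and passed it in 6 alternatives (DESeq2, relative log expression factors, and without Bd21 control replicate 2 or 3, Bd3-1 drought replicate 2 or F1 control replicate 2), with adjusted p between 0.0153 and 0.341 over all of them. Likewise the NAC gene Bradi4g44000 stood at 2.47 ± 0.77 (adjusted p = 0.0723) and passed in 5 (DESeq2, parental libraries alone, and without the first control library of Bd3-1 or of F1, or F1 drought replicate 3), with a range of 0.0284 to 0.215. The number of called genes changed with single libraries. Without Bd21 control replicate 1, Bd21 drought replicate 1 or Bd21 drought replicate 3 it was 5, 4 and 5 in place of 8. Without Bd3-1 drought replicate 1 or Bd3-1 drought replicate 2 it was 4 and 4. The shares of all genes called in those fits are not given.

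The F1 hybrid was compared with the mean of its parents on the log2 scale in the same fit, again on the libraries that chose the genes. On that scale a hybrid at the plain average of unequal parents lies above their mean. A call of higher is therefore not by itself a level above both parents or above their plain average. At an adjusted p under 0.05, 18 of the 146 genes were higher in the F1 hybrid (12.3%, where 4.53% of all genes tested were higher) and 1 was lower (0.685%, where 2.06% were lower). At an unadjusted p under 0.05, 34 were higher (where 13.4% of all were) and 10 lower (where 8.18% were). The median log2 change was 0.33, and 0.05 over all genes. Among the named genes, the ATHB-7 ortholog Bradi3g50220 was higher by 1.33 ± 0.19 (SE, adjusted p = 7.6e-05 by edgeR) and the cold regulated gene Bradi2g45054 by 1.33 ± 0.31 (adjusted p = 0.0104). Both were called in all 29 alternatives, with the largest adjusted p at 0.00030 and 0.0246. The NCED2 ortholog Bradi1g13760, at 1.32 ± 0.47, did not pass (adjusted p = 0.0913), and passed without Bd21 control replicate 3 (1.74, adjusted p = 0.0462) or F1 control replicate 5 (1.48, adjusted p = 0.0397), with a range of 0.0397 to 0.391 over the alternatives. The HAB1 and HAB2 orthologs had changes of -0.12 ± 0.20 and 0.30 ± 0.20 (adjusted p = 0.794 and 0.411), and the AITR3 ortholog 0.44 ± 0.33 (adjusted p = 0.486).

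The transporter gene Bradi3g39800 was higher in the F1 hybrid by 0.97 ± 0.27 (adjusted p = 0.0284 by edgeR) and the U-box gene Bradi4g29360 by 1.66 ± 0.44 (adjusted p = 0.0233). For Bradi3g39800 the F1 control mean of 40.5 CPM lay between 14.1 in Bd21 and 53.9 in Bd3-1. Its F1 drought mean of 346 CPM lay above 123 in Bd21 and 255 in Bd3-1. Among the fits without 1 library, both calls could be lost. Leaving out Bd3-1 drought replicate 2 (adjusted p = 0.0537), or one of the F1 libraries control 1 (0.0903), control 5 (0.0559) and drought 2 (0.0520), ended the first call, with adjusted p between 0.0059 and 0.0903 over 29 alternatives. The second lost it without F1 control replicate 4, the library at 48.8 CPM, where the change was 0.98 (adjusted p = 0.0977, with a range of 0.0140 to 0.107). Of the unnamed genes, Bradi3g44260 was higher by 3.05 ± 0.65 (adjusted p = 0.0062 by edgeR). Its F1 libraries gave 0.258, 27.9, 2.46, 4.77 and 0.620 CPM in control and 100, 130, 4.56, 185 and 59.3 in drought. Drought replicate 3 lay below control replicates 2 and 4, and inside the parental drought range of 1.79 to 34.7 CPM. Bradi5g22882 was the lower one, at -3.20 ± 0.68 (adjusted p = 0.0054 by edgeR). Bradi5g22882 measured 0, 0.667, 1.2, 2.55 and 0 CPM in F1 control and 25.8, 18.2, 3.02, 30.3 and 6.75 in F1 drought, where the parents held 0.846 to 64.1 CPM in control and 40.3 to 150.0 in drought. Bradi2g18090 was called as well, was listed at 0 in Bd21 control, and, among the fits without 1 library, lost its call without F1 control replicate 2 (adjusted p = 0.229, with a range of 0.0072 to 0.229).

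**Figure D4:**
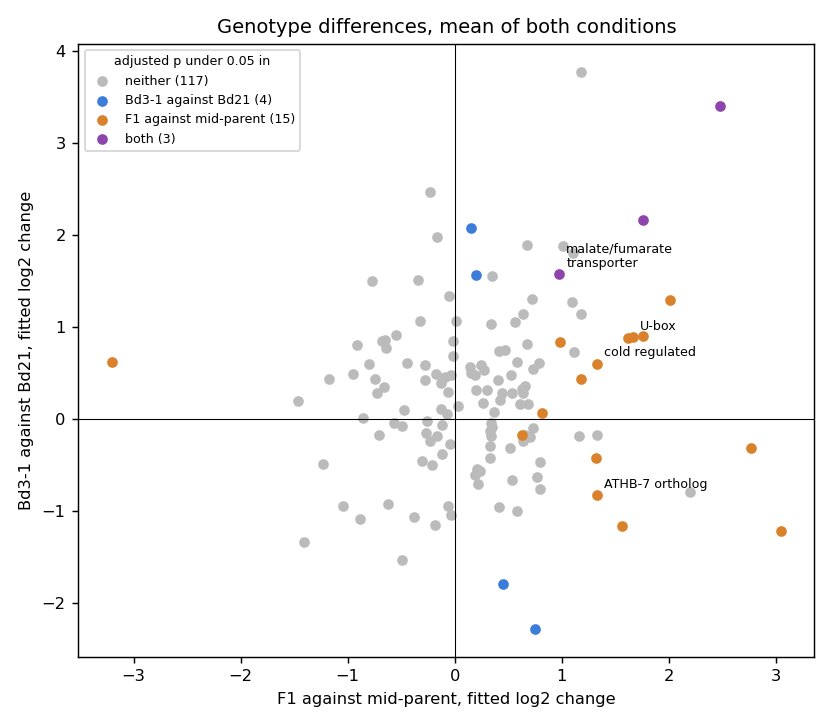
Fitted log2 change of F1 against the mean of the parents on the log2 scale (x axis) and of Bd3-1 against Bd21 (y axis). The 139 genes with no group at 0 are drawn, coloured by which comparison called them. The 3 genes called in both lie at the upper right, and 14 of the 15 called against the mid-parent alone lie right of 0.

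Split by condition, the F1 excess was on the drought side. In drought the median of the 146 genes for F1 minus the mean of the parents was 0.38 in mean log2(CPM + 1), against -0.03 for all genes kept, and 102 of the 146 genes were above 0 (69.9%, against 46.7%). In control the median was -0.26, against -0.17 for all genes kept, and 48 genes were above 0 (32.9%, against 31.5%). By group means, the F1 hybrid was the highest genotype in drought for 86 genes and the lowest in control for 79. The shares over all genes kept were not counted, so nothing is read from these numbers. These values share the libraries that chose the genes and are given without a test.

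Allele counts separate the parental copies within a hybrid plant, and the rule used their sum but not their ratio. For 92 of the 146 genes (63.0%, where 59.6% of genes kept did) the Bd21 and Bd3-1 counts were equal in all libraries, which is how the estimates divide reads without a distinguishing variant. Another 22 genes (15.1%, against 15.0%) were distinguishable, with under 20% of the opposing allele and more than 1 own-allele count in every parental library. On 3403 genes distinguishable by this criterion, which is not the gene set of the study, a model with the terms of the study was fitted, with allele as the cis term, allele by generation as the trans term and allele by treatment as the cis by environment term. The treatment variable had its midpoint at 0, which makes the cis and trans terms means of both conditions, where the coding of the study, 0 for control, gives them in control. At the study's threshold, an unadjusted P under 0.1 in edgeR, 1 of the 22 genes had a cis term in favour of Bd3-1 (4.55%, where 13.2% of all did) and 3 in favour of Bd21 (13.6%, where 18.5% did). After adjustment at 0.1, the counts were 0 and 1 (6.20% and 10% of all). DESeq2 also called 1 and 3 at the unadjusted threshold. Both alleles of a hybrid come from the same plant, and with the plant as a block in the F1 libraries alone 10 of the 22 genes were called in place of 4, of which 4 favoured Bd3-1 (18.2%, where 12.5% of all did) and 6 Bd21 (27.3%, where 16.5% did). With the coding of the study, cis in control was called in 2 genes toward Bd3-1 (9.09%, where 10.4% of all were) and 2 toward Bd21 (9.09%, where 14.3% were).

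The gene that passed adjustment in the fit without a plant block was Bradi3g51280, called at the unadjusted threshold in all 33 alternatives. It had a cis term of -2.03 ± 0.53 on the log2 scale (SE, adjusted p = 0.0090 by edgeR). Its Bd21 counts in F1 plants 1 to 5 were 12.4, 109, 17.7, 26 and 47.0 in control, beside Bd3-1 counts of 16.6, 27.6, 13.3, 13.0 and 0. In drought the Bd21 counts were 216, 289, 102, 171 and 175, and the Bd3-1 counts 106, 85.4, 17.0, 0 and 14.8. The Bd21 allele was higher in 9 of 10 plants, control replicate 1 being the exception. The log2 ratio (Bd3-1 over Bd21, 1 added to each count) averaged -2.47 ± 2.43 (SD, n = 10). The adjusted p of the cis term lay between 0.00048 and 0.278 over the alternatives, the highest being that of cis in control by the coding of the study, with a term of -1.56. With the plant as a block, Bradi4g25750 was called toward Bd3-1, at 0.39 (adjusted p = 0.0026 by edgeR). That gene was called in 1 of 33 alternatives.

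For the ATHB-7 ortholog Bradi3g50220, the Bd21 allele was higher in all 5 F1 drought plants, with Bd21 counts of 7543, 6881, 6327, 2439 and 2829 beside Bd3-1 counts of 4467, 4187, 4383, 1850 and 1270. In control the Bd21 counts were 310.2, 289, 162, 167 and 249.7 and the Bd3-1 counts 118, 544, 101, 97.0 and 71.7. Control replicate 2, where the total was also highest, was the plant with more of the Bd3-1 allele. The mean log2 ratio was -0.73 ± 0.71 (SD, n = 10). The cis term was -0.54 ± 0.25 (adjusted p = 0.185 by edgeR). It was called at the unadjusted threshold in 30 of 33 alternatives, not without F1 control replicate 1 (adjusted p = 0.324 by edgeR) or F1 control replicate 5 (0.347), nor by the coding of the study, where cis in control was -0.36 (0.679), and the adjusted p over all of them lay between 0.0011 and 0.679. Allele ratios in control and drought had means of -0.74 and -0.71.

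No trans term was called among the 22 genes by edgeR or by DESeq2 at an unadjusted P under 0.1 (0 higher, where 6.96% of all were, and 0 lower, where 4.06% were). With the coding of the study, trans in control was called in 2 genes toward Bd21 in the parents relative to the hybrid (9.09%, where 3.44% of all were) and in 0 toward Bd3-1 (5.70% of all). These were Bradi1g55610 (-2.76) and Bradi5g15587 (-3.25), with an adjusted p of 0.999 by edgeR for both. After adjustment at 0.1 the count of the centred fit was again 0, where 0.235% and 0.118% of all genes were called. The cis by environment term was called in 0 genes toward Bd3-1 (5.85% of all) and in 3 toward Bd21 (13.6%, where 6.38% of all were), and in 0 after adjustment (0.0294% of all toward Bd3-1 and 0% toward Bd21). Of the 3, Bradi1g58380 had the most counts. Its log2 ratios of Bd3-1 to Bd21 were 0.45, -0.01, 0.58, 0.48 and 0.39 in control plants and -0.37, -0.43, -0.04, -0.16 and -0.65 in drought plants. The ranges did not overlap, as the Bd3-1 allele was higher in 4 of 5 control plants and the Bd21 allele in 5 of 5 drought plants. Drought minus control was -0.71 between the means, and the model gave -0.67 ± 0.39 (adjusted p = 0.806 by edgeR, with a range of 0.720 to 0.902), called in 20 of 32 alternatives. The call ended without F1 control replicate 1, 3, 4 or 5, F1 drought replicate 1, 2 or 5, Bd21 control replicate 2 or 3, Bd21 drought replicate 3, or Bd3-1 control replicate 1 or 2. The model picked these genes on the same plants, so the ratios by plant describe the calls and are no independent evidence.

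**Figure D5:**
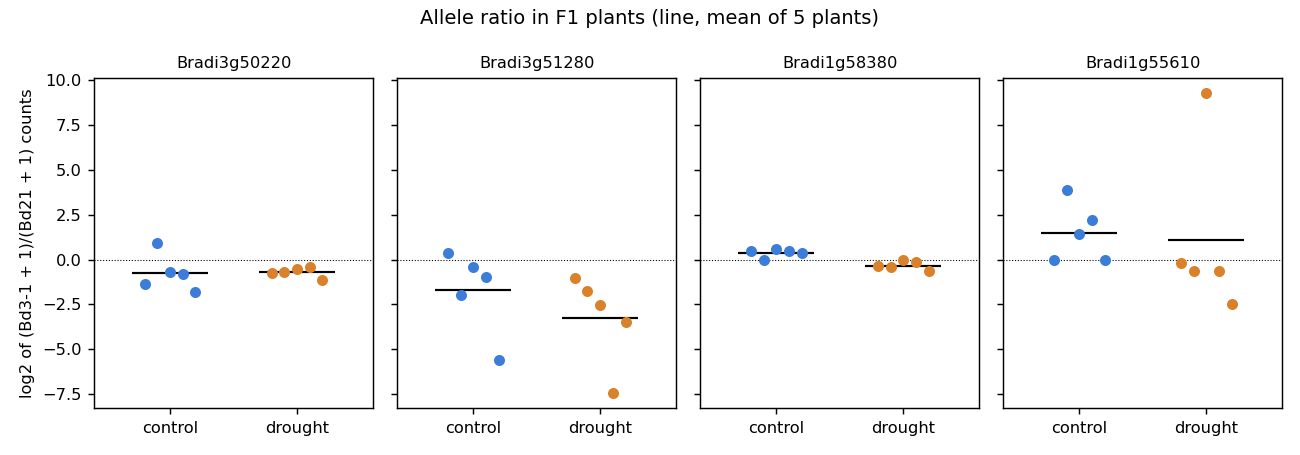
Log2 ratio of Bd3-1 to Bd21 counts with a pseudocount of 1 (y axis) in F1 plants by condition (x axis) for 4 genes; points are plants, the solid line their mean and the dotted line equal counts. Bradi1g58380 separates control from drought, Bradi3g51280 lies mostly below 0, and a single drought plant of Bradi1g55610 lies at 9.25.

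The other 2 genes with a cis by environment call changed with single plants. For the ELIP2 paralog Bradi1g55610, the Bd3-1 allele was higher in control replicates 2, 3 and 4, with log2 ratios of 3.89, 1.41 and 2.18, and the counts of replicates 1 and 5 were divided equally (41.0 and 41.0, 55.5 and 55.5). In drought the ratios were -0.20, -0.65, -0.62 and -2.47 in replicates 1, 2, 4 and 5, and replicate 3 had 0.07 Bd21 and 652 Bd3-1 counts. Its term was -3.21 ± 1.37 (adjusted p = 0.665 by edgeR) and lost its call without F1 control replicate 2 (-2.02, adjusted p = 0.830) and with the plant as a block (-1.68, adjusted p = 0.970), with a range of the adjusted p from 0.464 to 0.970 over 32 alternatives. Bradi5g15587, at -3.31 ± 1.53 (adjusted p = 0.694 by edgeR, range 0.249 to 0.970), was likewise lost without F1 control replicate 2 (-1.40, adjusted p = 0.965), the plant with 187 of its Bd3-1 counts and 0 Bd21 counts. Without that plant 1 of the 22 genes was called in place of 3, and the number of cis calls was 2 in place of 4. The shares of all genes in that fit are not given.

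Within groups, the 146 genes moved together from plant to plant. The deviation of each library from its group mean was not used by the rule. The median correlation between 2 of the 146 genes over these deviations was 0.36 in 24 libraries, and 0.07 between genes in a random draw of 3000 genes kept. In the 5 F1 drought libraries it was 0.55 against 0.05, in the 5 F1 control libraries 0.59 against 0.17 and in the 5 Bd3-1 control libraries 0.41 against 0.12. The points share library depth and composition, and the genes were chosen together. With TMM sizes the median was 0.27, and without F1 drought replicate 3 it was 0.31.

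Whole libraries stood above or below their group. In F1 drought replicate 3 only 10 of the 146 genes lay above the group mean, with a mean deviation of -0.93 on the log2 scale, where that of all genes kept was -0.11. F1 control replicates 2 and 4 had 117 and 119 genes above their group mean, with mean deviations of 0.80 and 0.55, and replicates 1 and 5 had 22 and 18, with -0.71 and -0.60. In Bd3-1 control, replicates 3 and 5 had 109 and 107 genes above the mean and replicates 1 and 4 had 28 and 27. The median SD within a group was higher for the 146 genes than for all genes kept, by a wide margin in the F1 hybrid (control 0.86 against 0.40, drought 0.70 against 0.41) and Bd3-1 (0.65 against 0.34, 0.55 against 0.31) and less so in Bd21 (0.48 against 0.36, 0.48 against 0.40).

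Against the mean of the other genes, 102 of the 146 had a correlation of deviations above 0.5, and 3 had one below 0. Among the named genes, the copper binding gene Bradi3g07897 (0.88), the ELIP2 paralog Bradi1g55610 (0.86), the NAC gene Bradi4g44000 (0.86), the HAB2 ortholog Bradi2g41950 (0.85) and the stay-green gene Bradi4g36060 (0.85) followed it most closely. The malate and fumarate transporter Bradi3g39800 ran against it at -0.27. In Bd3-1 control, for example, this transporter was highest in replicate 1 and lowest in replicate 5, while the stay-green gene was at 18.9 CPM in the former and at 184 in the latter. The cold regulated gene Bradi2g45054 (0.25) and the ATHB-7 ortholog Bradi3g50220 (0.46) were also loosely tied. In F1 drought replicate 3, where most genes were low, these 3 genes measured 346, 72.8 and 378 CPM, within the range of the other 4 plants.

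The identifiers carry the chromosome number and follow gene order, and the file holds no coordinates. Of the 146 genes, 35, 45, 30, 25 and 11 were numbered on chromosomes 1 to 5, which is 24%, 30.8%, 20.5%, 17.1% and 7.53%, where the genes kept gave 29.4%, 22.8%, 22.2%, 16.2% and 9.43%. In 15 genes (10.3%) another of the 146 lay within 5 rows of the table, and 4.42% of the other genes kept lay that close to one of them. Which of these neighbours are copies of one another was not analysed here.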

How the data were processed

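RNA-seq libraries of leaves were made by the authors with a directional poly(A) kit. Per the study's methods and the submitters' processing notes, the tools included Trimmomatic 0.38, cutadapt 3.7, STAR 2.6.1b, GATK 4.2.5.0 and Bowtie 1.2.2; reads were aligned to a diploid transcriptome and emase estimated allele counts and divided multimapping reads. The authors deposited these estimated counts, not normalized, as a Bd21 and a Bd3-1 column for each of 24 libraries. All columns were assigned to libraries by their labels. Of the gene totals above 0, 90.4% were whole within 0.001.

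Totals were the sum of both columns, and counts were rounded for the tests. These used edgeR 4.0.16 (quasi-likelihood F-test, TMM) in R 4.3.3, with 1 coefficient for each of 6 groups. Alternatives were DESeq2 1.42.0, relative log expression factors, other filters, other allele criteria, pseudocounts of 0.5 and 5, a replicate or plant block, the treatment coding of the study for alleles (the main allele fit centred treatment), and fits without each library. Python 3.11.15, numpy 2.4.6, pandas 2.3.3 and matplotlib 3.10.9 were used. The fits were tested on simulated data. The 39 pairs of replicates each differed beyond sampling noise (lowest chi-square over its degrees of freedom, 17.9).

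The 146 genes and the lists were chosen with earlier results of these data known. By rule the text names the genes that the study annotates, genes at the edge of the selection and, of the highest scores, the highest drought levels and the calls of each test (largest change first, mean of at least 1 CPM), at most 2 identifiers in each direction. Bradi1g55600 and Bradi3g00920 come from the study's lists and were singled out after their values were seen. Descriptions by gene family could not be made, since identifiers had no description. Promoter and protein sequences were not used here.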

Additional observations from a re-analysis of the deposited data

Results flagged for a closer look

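Of 46 groups of 5 libraries examined (the share of the 146 genes and the levels of the 15 named genes), 7 held a library that stood apart by Dixon's criterion at 0.71 of the range; chance alone gives about 1 in 20. On the log2(CPM + 1) scale, the ATHB-7 ortholog Bradi3g50220 was high in F1 control replicate 2 (5.25, the others 3.59 to 3.97). The transporter gene Bradi3g39800 was high in Bd3-1 control replicate 1 (6.13, the others 5.59 to 5.72) and low in F1 drought replicate 4 (7.24, the others 8.44 to 8.86). The kinase gene Bradi4g30380 was low in Bd3-1 control replicate 1 (3.46, the others 4.52 to 4.90), and the U-box gene Bradi4g29360 was high in F1 control replicate 4 (5.64, the others 2.11 to 3.11). In F1 drought replicate 3, the NAC gene Bradi4g44000 was low (1.12, the others 4.15 to 4.89), as was the copper binding gene Bradi3g07897 (4.08, the others 5.75 to 6.12).

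The allele ratio of Bradi1g58380 differed between F1 drought and F1 control plants by -0.71 on the log2 scale, with no overlap between the 5 plants of either condition. The allele model picked this gene on the same plants, so no independent test of it was possible.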

How the results depend on the processing

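Of the 146 genes, 139 were selected again with TMM sizes, 128 with a pseudocount of 0.5, 101 with a pseudocount of 5, all 146 under either other filter, and 122 to 144 when 1 library was left out. Genes separated in all 3 genotypes numbered 66 with TMM sizes, 71 to 86 without 1 library and 74 without the 2 shallowest libraries. Leaving out libraries can only keep or raise this count, so it cannot show whether the count rests on single libraries. Leaving out the 2 shallowest was chosen after seeing the data, as were TMM sizes for drought minus control and for the correlations. The F1 hybrid had the largest difference in 103 to 126 genes without 1 library.

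For Bd3-1 against Bd21, DESeq2 called 16 of the 146 genes (12 higher, 4 lower) in place of 8, and fits without 1 library called 4 to 11. For the F1 hybrid against the mid-parent, fits without 1 library called 15 to 20 in place of 19. The shares of all genes called in the fits without 1 library are not given. Whether these counts moved with those of all genes was not tested. The replicate numbers of the labels did not pair the libraries: the deviations of 51 same-numbered pairs correlated between -0.24 and 0.22, with a median of 0.00, and 5 exceeded 0.1. With the replicate block 10 genes were called for the F1 hybrid against the mid-parent. Of these, 9 were higher (6.16%, where 2.46% of all were) and 1 lower (0.685%, where 1.02% of all were). Bradi3g39800, Bradi4g29360 and Bradi2g18090 were among those not called (adjusted p = 0.0743, 0.107 and 0.0587 by edgeR). The block gave 8 for Bd3-1 against Bd21, and 1 for trans in place of 0, with the shares of all genes not given.

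With the allele criterion on the mean of each accession, 47 of the 146 genes were distinguishable, and cis, trans and cis by environment were called in 9, 6 and 5. The shares of all genes under that criterion are not given, so nothing is read from these counts. With the plant as a block in F1 libraries alone, cis was called in 10 in place of 4. With treatment coded 0 for control, added after seeing the data, trans was called in 2 in place of 0. Without 1 library, the calls were 2 to 6 for cis, 0 to 2 for trans and 1 to 3 for cis by environment. The shares of all genes in those fits are not given either. The causes were not tested. No named call reversed. Low control counts limit ratios of alleles and of genes near 0.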
